A study of Mus musculus with 6 samples.

Results

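The epidermal growth factor (EGF) family and its receptors were followed as 10 genes, the ligands Egf, Tgfa, Hbegf, Areg, Ereg, Btc and Epgn and the receptors Egfr, Erbb2 and Erbb3, picked by symbol from a table of 30315 genes. The data were RNA-seq libraries of primary renal tubular epithelial cells (TECs) from C57BL/6 mice, cultured from kidney and grown to about 50% confluence. Cells were transfected either with a small interfering RNA (siRNA) against the transcription factor Sox9 (siSox9, 3 libraries) or with the control siRNA (siNC, 3 libraries), and hypoxia/reoxygenation (H/R) began 12 h later. Both groups went through H/R, a culture model of kidney ischemia-reperfusion in which cells stayed 6 h in glucose-free medium at 1.0% O2 and then 18 h in complete medium under normal conditions. No library of cells without H/R was analysed here, so each difference is between siSox9 and siNC after the same injury. The labels do not say whether the 3 libraries of a group came from separate cultures or animals, so the p-values measure only the spread between these samples, which may be technical.

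EGF family ligands are made as membrane-anchored precursors, and metalloproteases of the ADAM family cut them to release the soluble growth factor. Ligand binding pairs EGFR with itself or with a relative, and the paired kinases feed the RAS-ERK and PI3K-AKT routes. In the kidney this signalling is known for driving tubular cells to proliferate after acute injury, and long-lasting EGFR activity is known for its part in fibrosis.

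The siRNA target was checked first. Sox9 stood at 8.93, 8.61 and 9.07 FPKM (fragments per kilobase of exon, scaled to library size) in siSox9 and at 25.7, 26.5 and 25.6 FPKM in siNC. The siSox9 level was thus 34.2% of the siNC level, with a log2 difference of -1.45 (SE 0.03, limma on log2(FPKM + 1), adjusted p 7.03e-06). Library totals recovered from the values were 23893197 to 25725743 reads. The cells held the tubular epithelial markers (7 of 7 at 1 FPKM or more), while proximal tubule markers passed that level in 1 of 5 cases (Lrp2) and distal tubule and collecting duct markers in 0 of 5. Of the macrophage markers 4 of 5 reached 1 FPKM, and their summed level ran from 103 to 114 FPKM in siSox9 and from 92.2 to 98.7 FPKM in siNC. Podocyte markers reached 1 FPKM in 2 of 5 cases (Podxl and Synpo). They summed to 12.5 to 13.9 FPKM in siSox9 and 18.8 to 19.5 FPKM in siNC, with Nphs1 at 0. Endothelial and fibroblast markers each reached 1 FPKM in 1 of 5 cases. Summed endothelial markers were 2.91 to 3.10 FPKM in siSox9 and 3.22 to 4.12 FPKM in siNC, and summed fibroblast markers 6.24 to 7.76 and 7.72 to 8.79 FPKM. In bulk libraries a change in the number of cells of a type and a change in RNA per cell cannot be told apart.

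The family was dominated by a single ligand, Hbegf, and a single receptor, Egfr. Across the 6 libraries Hbegf made up 93.9% to 95.9% of the FPKM summed over the 7 ligands, and Egfr 62.9% to 64.1% of the FPKM summed over the 3 receptors. FPKM is per length, so levels can be set against each other between genes as far as the lengths used hold. The length behind the Hbegf values differed from the reference. If it was 2373 bases, the shortest length fitted to them, Hbegf would make up 88.3% to 92.0% of the ligand FPKM on the reference length. In siNC the mean levels ran in the order Hbegf, Egfr, Erbb2, Erbb3, Tgfa, Btc, Areg, Ereg, Egf and Epgn, and the libraries of Areg and Ereg overlapped while every other pair of neighbours was separate. In siSox9 the order was the same down to Btc, whose libraries overlapped those of Ereg. Areg came next, and below it Egf and Epgn overlapped.

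**Figure D1:**
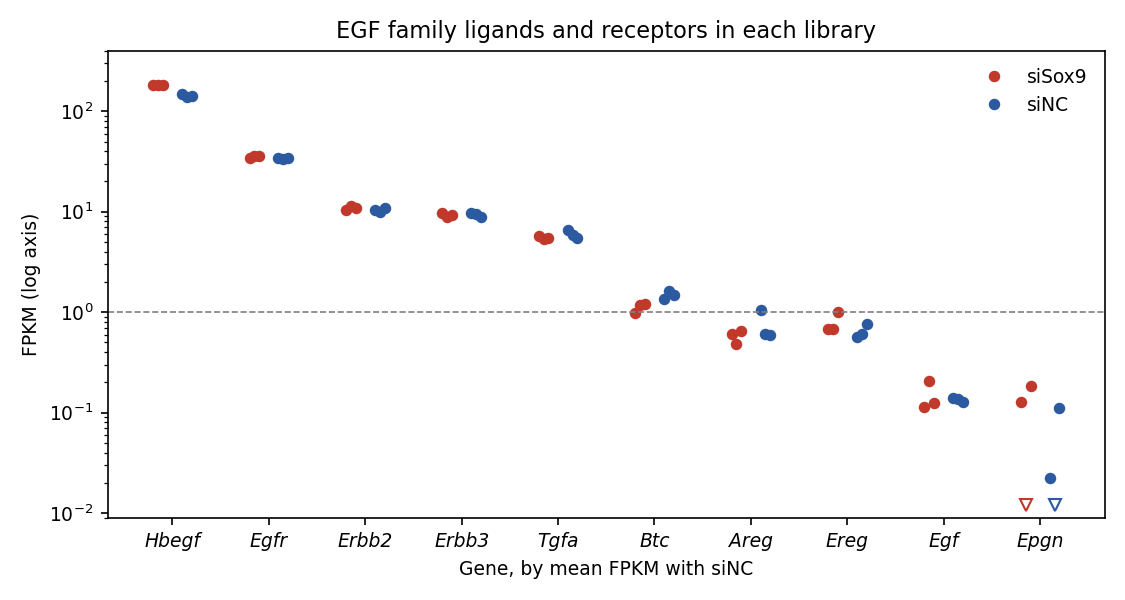
FPKM of the 10 family genes on a log axis, a point for each library, with siSox9 and siNC in separate colours, open triangles for libraries listed at 0 and a dashed line at 1 FPKM. Hbegf lies above 138 FPKM in all 6 libraries, Egfr near 34, and Areg, Ereg, Egf and Epgn near or under 1.

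The 100 bases before the RefSeq transcription start are shown for the best-expressed receptor, its partner Erbb2 and 3 ligands of the family that differ in level. The windows (GRCm38.p6, 5′ to 3′ on the strand of the gene) were searched on both strands for a TATA box spelled TATAAA, for a GC box with the letters GGGCGG, for a promoter box with the letters CCAAT and for a core that SOX factors bind, written AACAAT. Capitals mark a match or, where it lies on the other strand, its reverse complement.
Egfr, chr11:16752103-16752202, plus strand: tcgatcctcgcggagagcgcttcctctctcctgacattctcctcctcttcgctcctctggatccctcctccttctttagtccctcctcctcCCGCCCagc
Erbb2, chr11:98412384-98412483, plus strand: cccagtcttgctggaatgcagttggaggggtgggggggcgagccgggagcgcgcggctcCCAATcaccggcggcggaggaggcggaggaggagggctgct
Tgfa, chr6:86195122-86195221, plus strand: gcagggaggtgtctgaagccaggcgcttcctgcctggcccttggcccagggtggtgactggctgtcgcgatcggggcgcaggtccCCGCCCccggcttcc
Areg, chr5:91139499-91139598, plus strand: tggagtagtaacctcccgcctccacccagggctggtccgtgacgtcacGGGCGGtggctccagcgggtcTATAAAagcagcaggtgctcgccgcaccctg
Btc, chr5:91402995-91403094, minus strand: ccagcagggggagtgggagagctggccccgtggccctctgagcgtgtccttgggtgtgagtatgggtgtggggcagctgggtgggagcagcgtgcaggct

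Of the 10 genes 7 had an entry, and Hbegf, Ereg and Erbb3 had none. Areg, present at under 1 FPKM in most libraries, carried TATAAA 31 to 26 bases before the start and GGGCGG 52 to 47 bases before it. Egfr and Tgfa had GGGCGG on the minus strand, at 9 to 4 and 15 to 10 bases before the start. Erbb2 had CCAAT at 41 to 37 bases before the start, and Btc had no match. Epgn, the lowest of the family, had TATAAA 86 to 81 bases before the RefSeq start. The gene start in the deposited table (91027464) lies inside that Epgn window (91027417 to 91027516), so this distance depends on the start used. For Erbb2 too the deposited start (98412470) lies inside the window. In all 32851 promoter windows of this length, TATAAA was in 5.56%, GGGCGG in 24.7%, CCAAT in 18.9% and AACAAT in 3.36%. AACAAT was in none of the windows of the 7 members with an entry, which says only that these letters were absent there. Hbegf was not searched. No matches overlapped.

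Of the table's genes, 12009 averaged 1 FPKM or more and were tested, and 30.4% passed an adjusted p of 0.05 by limma with Benjamini-Hochberg adjustment, 1532 higher (12.8%) and 2118 lower (17.6%) in siSox9. Centring each library on its median moved that split to 1959 higher of 3724 genes called, and leaving out siSox9 replicate 2 lowered the 3650 calls to 2424. Of the 10 family genes 6 were tested and 1 passed, Hbegf, which was higher in siSox9. With 6 genes tested this count is near the background and says nothing particular of the family, and limma voom on recovered reads with fitted lengths called 3 of 9 members where 31.5% of genes passed. The siSox9 and siNC libraries did not overlap for 3 of the 6 tested members (Hbegf and Egfr higher, Btc lower), against 46.3% of all genes tested (20.2% higher and 26.1% lower). The median log2 difference of the 6 was 0.02, beside -0.01 over all genes tested.

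**Figure D2:**
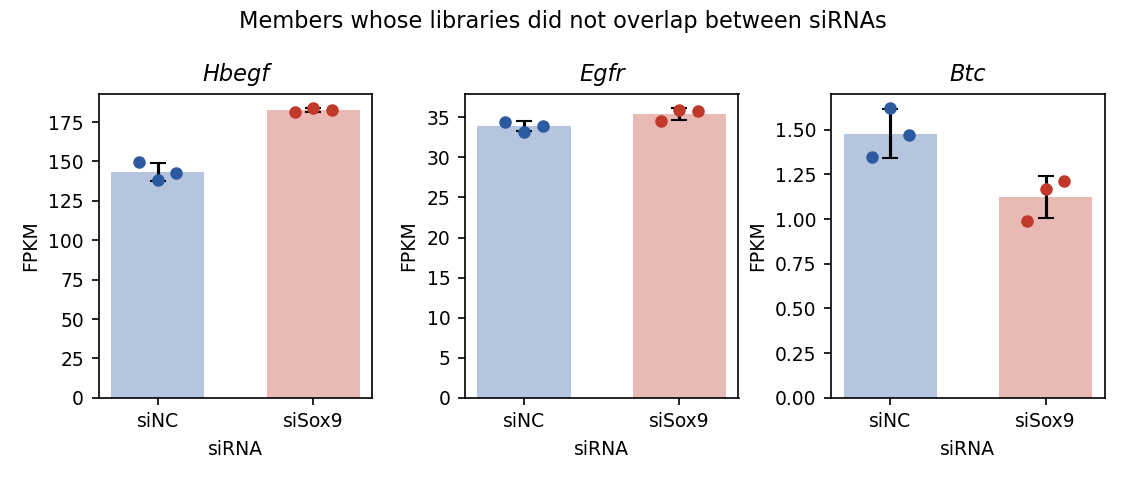
FPKM in each library for Hbegf, Egfr and Btc, the tested members whose groups did not overlap, with the group mean as a bar and the SD as an error bar (n = 3). The siSox9 libraries lie above siNC for Hbegf (181 to 184 against 138 to 150) and Egfr and below it for Btc.

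Hbegf (ENSMUSG00000024486, chromosome 18, 36504929 to 36515805, minus strand, GRCm38) encodes heparin-binding EGF-like growth factor, a ligand of EGFR and ERBB4. Its level was 181, 184 and 183 FPKM in siSox9 and 149.5, 138 and 142 FPKM in siNC. All 3 siSox9 libraries were above all siNC libraries, and the siNC libraries were the more spread. The means were 182.6 ± 1.36 and 143.3 ± 5.74 FPKM (SD, n = 3), a ratio of 1.27. On the log2(FPKM + 1) scale Hbegf rose by 0.35 (SE 0.04, 95% interval 0.26 to 0.43, limma adjusted p 0.0006). The interval is 1.20- to 1.35-fold. An exact two-sided permutation test of the same values gave p = 0.1, the smallest that 3 against 3 allows. By size the rise was not extreme, with 363 genes (3.02% of those tested) showing a larger one. In the same libraries, where 30.4% of all genes tested passed, 1 of 4 tested macrophage markers did. It was Lyz2, which rose by 0.21 on the log2 scale (limma adjusted p 0.0175), and without the filter on low values no macrophage marker passed. The 2 tested podocyte markers passed and fell, Podxl by 0.57 (limma adjusted p 0.0002) and Synpo. Of the 7 tubule epithelium markers 1 passed, Cdh16, which was higher in siSox9. The part of these markers in the Hbegf difference was not tested.

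The rise kept its direction and its side of the threshold in all 14 alternative fits that measured it, between 0.32 and 0.38 on the log2 scale, with adjusted p from 1.99e-07 to 0.00531. The FPKM of Hbegf did not give whole reads with the reference exon length of 4834 bases. The shortest length that gave whole reads in every library was 2373 bases, and a multiple of it could give whole reads too. If 2373 bases was the length used, those reads spread over 4834 bases would give 89.6 FPKM in siSox9 and 70.4 FPKM in siNC. These values are still above Egfr. The comparison between groups does not depend on that length.

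Seen within the family, the summed ligand level was 190.8 ± 1.28 FPKM in siSox9 and 152.4 ± 6.21 FPKM in siNC (SD, n = 3). Hbegf took 95.7% of it in siSox9 and 94.1% in siNC, and Tgfa took 2.87% and 3.92%. The remaining 5 ligands together gave 2.75 ± 0.376 and 3.06 ± 0.0814 FPKM, which overlapped. The ratio of Hbegf to Egfr FPKM was 5.16 ± 0.0756 in siSox9 and 4.23 ± 0.0941 in siNC, with no overlap (exact permutation p = 0.1, the smallest possible). If 2373 bases was the length behind the Hbegf values, the ratio on its reference length would be 2.53 ± 0.0371 and 2.08 ± 0.0462.

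Tgfa, transforming growth factor alpha, binds EGFR and was the ligand next in level. It stood at 5.69, 5.33 and 5.43 FPKM in siSox9 and at 6.55, 5.92 and 5.46 FPKM in siNC. The highest siSox9 library lay above the lowest siNC library, so the groups overlapped. The log2 difference was -0.10 (SE 0.06, 95% interval -0.25 to 0.04, limma adjusted p 0.248).

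Btc, betacellulin, binds EGFR and ERBB4. It stood at 0.989, 1.17 and 1.21 FPKM in siSox9 and at 1.35, 1.62 and 1.47 FPKM in siNC. Each siSox9 library was below each siNC library, with 115, 134 and 131 reads against 151, 177 and 165. The means of 1.12 ± 0.118 and 1.48 ± 0.138 FPKM (SD, n = 3) gave a ratio of 0.76. The log2 difference was -0.22 (SE 0.08, 95% interval -0.40 to -0.04), and the limma adjusted p of 0.0651 missed the threshold. On the recovered reads, limma voom gave a log2 difference of -0.37 with an adjusted p of 0.0323, past the threshold that 30.8% of genes passed in that fit, so the call on Btc depends on the test.

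The other ligands lay under the 1 FPKM minimum and were read from their values and reads. Areg, amphiregulin, an EGFR ligand cut from the membrane by ADAM17, stood at 0.608, 0.486 and 0.654 FPKM in siSox9 and 1.06, 0.613 and 0.596 FPKM in siNC. The groups overlapped, and siNC replicate 1 was the high library, with 32 reads against 15 to 19 in the other 5. Limma voom gave a log2 difference of -0.31 (SE 0.31, adjusted p 0.502).

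Ereg, epiregulin, which binds EGFR and ERBB4, stood at 0.687, 0.677 and 1.00 FPKM in siSox9 and 0.566, 0.602 and 0.770 FPKM in siNC. The groups overlapped (limma voom log2 difference 0.29, adjusted p 0.280). Ereg shares 141 exon bases (3.42% of its own and 34.6% of the other gene's) with the antisense gene Gm19610, and whether counting used the strand is not given in the sources used here, so reads of the shared bases cannot be told apart.

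Egf, the founding ligand, is known in the kidney as a product of the distal tubule. It stood at 0.114, 0.206 and 0.126 FPKM in siSox9 and 0.139, 0.136 and 0.128 FPKM in siNC, or 33 to 59 reads per library. The groups overlapped (limma voom log2 difference 0.12, adjusted p 0.762), and the distal tubule and collecting duct markers summed to only 0.105 to 0.158 FPKM in the same libraries. Egf shares 9.82% of its exon bases with 2 genes on the other strand. Epgn, epigen, gave 6, 0 and 8 reads in siSox9 and 1, 0 and 5 reads in siNC. A count of 0 there allows up to 3 reads, or 0.0654 FPKM in the siSox9 library and 0.0687 FPKM in the siNC library, so no difference was detectable at this depth. A floor of this kind covers counting error only.

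Epgn, Ereg, Areg and Btc lie in that order on chromosome 5 within 375531 bases (91027464 to 91402994, GRCm38). The gaps are 39406 bases from Epgn to Ereg, 45952 from Ereg to Areg and 208828 from Areg to Btc. In siNC all 4 of these clustered ligands were below Tgfa, which lies on chromosome 6. Of the 4 only Btc reached the minimum for the test on FPKM. On the recovered reads the log2 differences were 0.29 for Ereg (SE 0.19), -0.31 for Areg (SE 0.31) and -0.37 for Btc (SE 0.13). Ereg and Areg did not pass the threshold there (limma voom adjusted p 0.280 and 0.502), so the signs of Ereg and Areg are not settled.

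**Figure D3:**
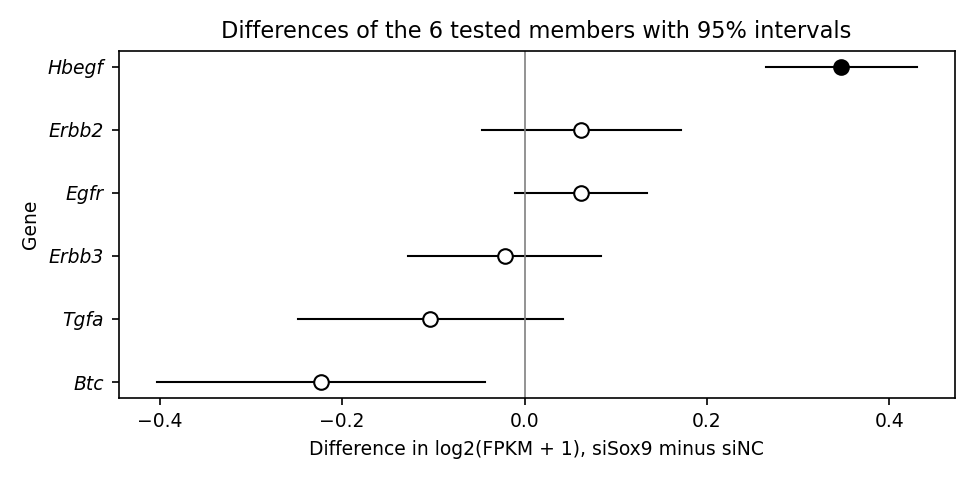
Difference in log2(FPKM + 1), siSox9 minus siNC, with its 95% interval from limma for the 6 family genes that reached a mean of 1 FPKM, filled where the adjusted p was under 0.05. The interval of Hbegf (0.26 to 0.43) lies above 0, and that of Btc (-0.40 to -0.04) below it although its adjusted p missed the threshold.

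Among the receptors none passed the threshold. Egfr (ENSMUSG00000020122, chromosome 11, 16752203 to 16918158, plus strand) encodes the receptor of all 7 ligands. It stood at 34.54, 35.9 and 35.8 FPKM in siSox9 and at 34.48, 33.2 and 33.9 FPKM in siNC. The groups did not overlap, but the lowest siSox9 library and the highest siNC library were nearly level. The log2 difference was 0.06 (SE 0.03, 95% interval -0.01 to 0.13, limma adjusted p 0.170) and the interval is 0.993- to 1.10-fold. On recovered reads limma voom gave an adjusted p of 0.0509, and with fitted lengths, an alternative chosen after seeing the data in which 31.5% of genes passed, 0.0409.

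Erbb2, which has no known ligand of its own and is the preferred partner of the others, stood at 10.5, 11.5 and 10.8 FPKM in siSox9 and 10.4, 10.02 and 10.95 FPKM in siNC. The groups overlapped (log2 difference 0.06, SE 0.05, 95% interval -0.05 to 0.17, limma adjusted p 0.350). Erbb3, a neuregulin receptor with little kinase activity, stood at 9.62, 8.85 and 9.20 FPKM in siSox9 and 9.64, 9.58 and 8.92 FPKM in siNC. Its groups overlapped too (log2 difference -0.02, SE 0.05, 95% interval -0.13 to 0.08, limma adjusted p 0.750), and the sign of this small difference turned under other scalings. The shares of Egfr, Erbb2 and Erbb3 in the receptor FPKM were 63.7%, 19.7% and 16.6% in siSox9 and 63.1%, 19.4% and 17.5% in siNC.

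The genes around the family were read from 5 lists with 71 genes in all, of which 67 were tested and 14 passed the threshold (20.9%, beside the background of 30.4%). Of the 14, 6 stayed past it in all 15 alternative fits, Adam12, Egr1, Etv5 and Ier3 among them. The count of 14 was 9 without siSox9 replicate 1, 9 without siSox9 replicate 2 and 8 without siNC replicate 3. In those fits the calls over all 12009 genes tested fell too, from 3650 to 2619, 2424 and 2596. On TPM the lists gave 7 calls and after median centring 21, where 2549 and 3724 of all genes were called. On recovered reads they gave 23 of 62 (37.1%, beside 30.8% of all genes). With fitted lengths they gave 27 of 70 (38.6%, beside 31.5%), so the lists lay below or above the background depending on the fit. Frmd8, Lrig1 and Rnf41 each lost the call when 1 of 4 libraries was left out, and Akt2, Fosl1 and Plcg1 with 1 of 5. Pik3cb lost it without siSox9 replicate 2, and the limma adjusted p in these fits lay between 0.0506 and 0.153. On TPM these genes and Timp3 all lost the call (limma adjusted p 0.0573 for Rnf41 to 0.199 for Pik3cb, with Timp3 at 0.0742). A replicate block lost Akt2, Frmd8, Lrig1 and Plcg1, and dropping the filter lost Akt2, Fosl1, Lrig1 and Plcg1. Akt2 was also lost after median centring and quantile normalization.

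The list of neuregulins and Erbb4 covered the other ligand branch of the family, and 4 of its 5 genes were in the table. Nrg1, an ERBB3 and ERBB4 ligand, was the only one tested, at 8.23 ± 0.0871 FPKM in siSox9 and 8.37 ± 0.409 FPKM in siNC (SD, n = 3, limma adjusted p 0.753). The receptor Erbb4 was at 0.130 and 0.122 FPKM, and Nrg4 at 0.195 and 0.145 FPKM. Nrg2 stood at 0.265, 0.332 and 0.299 FPKM in siSox9 and at 0.575, 0.766 and 0.666 FPKM in siNC, without overlap. It was under the minimum for the test, and without that filter limma gave an adjusted p of 0.0192, in a fit where 9.6% of genes passed.

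Of the 8 genes of ligand shedding 2 rose and 1 fell, beside 12.8% and 17.6% of all genes tested (median log2 difference 0.08, beside -0.01 over all genes tested). The counts were 4 and 1 after median centring and on recovered reads, and 1 and 0 on TPM. In these fits the calls over all genes were 3724 of 12009, 4172 of 13559 and 2549 of 12009. Adam12, a metalloprotease known to release HB-EGF, stood at 50.3, 51.4 and 47.8 FPKM in siSox9 and at 39.7, 39.2 and 40.7 FPKM in siNC. It rose by 0.31 on the log2 scale (SE 0.04, limma adjusted p 0.000991), with no overlap. Frmd8, which stabilises the iRhom partners of ADAM17, rose by 0.11 (adjusted p 0.0327), and Timp3, an inhibitor of ADAM17, fell by 0.23 (adjusted p 0.0108).

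Of the 13 genes of receptor restraint and turnover 2 rose and 0 fell, beside 12.8% and 17.6% of all genes tested (median log2 difference 0.01). The number that rose was 5 after median centring and with fitted lengths, 4 on recovered reads, 1 on TPM and without siSox9 replicate 2, and 0 without siSox9 replicate 1, siNC replicate 2 or siNC replicate 3. Calls over all genes moved in these fits too, from 3650 in the main fit to between 2424 and 4831. Lrig1, a membrane protein that promotes loss of EGFR, rose by 0.12 on the log2 scale, from 9.35 to 10.3 FPKM (limma adjusted p 0.0317). Rnf41, a ubiquitin ligase for ERBB3, rose by 0.18, from 12.4 to 14.2 FPKM (adjusted p 0.0184).

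Of the 28 adaptors and kinases 1 rose and 4 fell, beside 12.8% and 17.6% of all genes tested (median log2 difference -0.02). This split turned with the scaling, to 4 higher and 3 lower after median centring, 4 and 5 on recovered reads and 0 and 2 on TPM, and it was 0 and 3 without siNC replicate 3 or without any 1 of the siSox9 libraries. The split over all genes turned after median centring as well. Calls over all genes were 4172 of 13559 on recovered reads and 2549 of 12009 on TPM. They were 2424 to 2849 when a siSox9 library was left out and 2596 without siNC replicate 3. Akt2, an AKT kinase, fell by 0.19 on the log2 scale, from 11.02 to 9.57 FPKM (limma adjusted p 0.0402), and Pik3cb, a PI3K catalytic subunit, fell by 0.14, from 24.5 to 22.2 FPKM (adjusted p 0.0128). Plcg1, a phospholipase that docks on activated receptors, rose by 0.13 (adjusted p 0.0483).

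Of the 17 ERK response genes 2 rose and 2 fell, beside 12.8% and 17.6% of all genes tested (median log2 difference -0.05). With fitted lengths, where 31.5% of all genes passed, 3 rose and 3 fell. Egr1, an immediate early transcription factor, stood at 10.4, 8.98 and 9.80 FPKM in siSox9 and at 4.23, 4.84 and 4.88 FPKM in siNC. It rose by 0.92 on the log2 scale (SE 0.07, limma adjusted p 0.00017), and its lowest siSox9 library was far above its highest siNC library. Ier3, an early response gene, rose by 0.25 (adjusted p 0.00292). Etv5, an ETS factor, fell by 0.38 (adjusted p 0.00504), and Fosl1, an AP-1 subunit, fell by 0.22 (adjusted p 0.0307). The remaining 13 genes of the list, feedback phosphatases and Sprouty proteins among them, did not pass the threshold.

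**Figure D4:**
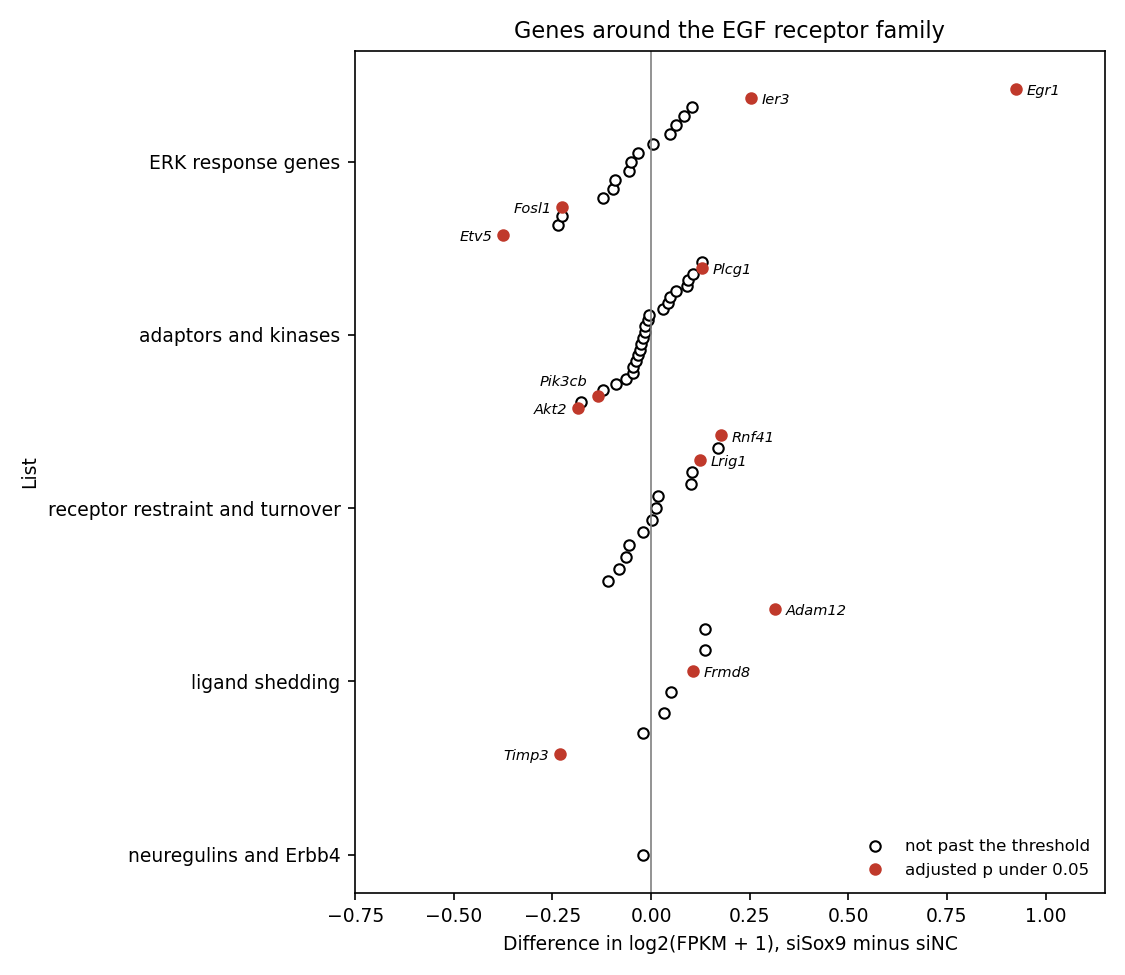
Difference in log2(FPKM + 1), siSox9 minus siNC, for 65 of the 67 tested genes of the 5 lists around the family, filled where the adjusted p was under 0.05. The 12 filled points lie on both sides of 0, from Etv5 (-0.38) to Egr1 (0.92).

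The genes whose pattern was most like that of Hbegf, the most abundant member and the only one past the threshold, were 1600012H06Rik, Atp6v0a2 and Abcc1, each with a Pearson r of 0.999 of log2(FPKM + 1) over the 6 libraries. With 3 libraries in each of 2 groups a high r is common, and 608 tested genes had an r above 0.95. How many came near 0.999 was not counted. Atp6v0a2, a proton pump subunit, stood at 13.2 ± 0.204 FPKM in siSox9 and 9.32 ± 0.442 FPKM in siNC (SD, n = 3), and Abcc1, an export pump, at 13.8 ± 0.118 and 12.1 ± 0.219 FPKM.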

How the data were processed

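The deposited table held FPKM values, which the authors made per gene and library from the RNA-seq reads. The submitters' processing notes name Bowtie2 2.2.3, HISAT2 2.1.0, TopHat2 and the build mm9, but the gene positions in the table matched GRCm38 (93.3% of the 30246 genes found in GENCODE M21), so positions are given as GRCm38. The counting tool, its strand setting and the gene lengths are not given in the sources used here. Libraries were grouped by their labels, and the siSox9 columns, which carried the prefix si3, were assigned as the only siRNA group other than siNC.

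The main test was limma 3.58.1 (R 4.3.3) with a trended prior on log2(FPKM + 1), over genes averaging 1 FPKM or more, two-sided, with Benjamini-Hochberg adjustment and a threshold of 0.05. A difference on this scale understates the change of low genes. Whole reads were recovered within 0.02 reads for 93.3% of values (27948 genes whole in all 6 libraries) from GENCODE M21 exon lengths, and limma voom on these reads called 4172 of 13559 genes. A variant with exon lengths fitted to the values, added after seeing the data, covered 29907 genes. Voom needed a mean of 10 reads. Other alternatives were a replicate block, TPM, quantile normalization, median centring, a pseudocount of 0.1, dropping the filter or raising it to 5 FPKM, and leaving out each library. Single values were also compared by an exact permutation test. The steps were tested on simulated data. Named were all members, Sox9, genes of the pathway lists past the threshold (at most 6 a list, otherwise the 3 of largest difference each way whose groups did not overlap), all neuregulins and Erbb4, marker lists, and the 3 genes most correlated with Hbegf. The values of 2 list genes that enter the counts are not reported here. The members and lists were chosen with earlier results of these data known.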

Additional observations from a re-analysis of the deposited data

How the results depend on the processing

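Hbegf and Sox9 kept direction and side of the threshold in every alternative that measured them, and Tgfa and Erbb2 stayed short of it in all 15. On recovered reads with fitted lengths 3 family genes were called (Hbegf, Btc and Egfr) in place of 1, and with reference lengths 1, which was Btc, since Hbegf was not measured there. Leaving out each library in turn gave 1 in every case. Btc passed only on recovered reads (log2 difference -0.37 with either length, adjusted p 0.0323 and 0.0337), and its adjusted p otherwise reached 0.174. The Erbb3 difference turned positive on TPM (0.0049), after median centring (0.0047), on recovered reads (0.00011 and, with fitted lengths, 0.0040) and without siSox9 replicate 2 (0.0045), and it was as low as -0.0545 (without siNC replicate 3). Pathway list genes called numbered 7 on TPM, 23 on recovered reads and 27 with fitted lengths, beside 2549, 4172 and 4831 of all genes. When a library was left out they numbered 8 to 16, and all genes called then ranged from 2424 (without siSox9 replicate 2) to 3654. No filter on low values left 2700 of 28122 genes called. The cause of these shifts was not tested. Replicate numbers did not pair the libraries (correlations of same-numbered deviations 0.0649, -0.0504 and 0.0078, and 2 of 6 libraries correlated best with their own number), and the fit with a replicate block called 3262 genes and 1 family gene. Depth limits Epgn, Egf and Areg, which rest on under 60 reads per library.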

Other observations

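Gm19610, the antisense gene that shares 141 of its 408 exon bases (34.6%) with Ereg on chromosome 5, was chosen after its values were seen. It stood at 1.81, 2.32 and 1.85 FPKM in siSox9 and 1.78, 0.913 and 1.28 FPKM in siNC. The groups did not overlap, but the libraries held only 9 to 24 reads each, and the log2 difference of 0.38 (SE 0.14, limma adjusted p 0.0824) missed the threshold. Ereg itself was 0.789 and 0.646 FPKM on average in the same groups, and reads of the shared bases cannot be told apart.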
